A study of Mus musculus with 24 samples.

Results

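Expression of 10 genes of hepatic de novo lipogenesis was followed in the liver of mice lacking the whole cluster of major urinary protein (Mup) genes and of wild-type mice. The genes were taken by name and were the enzymes Fasn, Scd1, Acaca, Acacb, Acly, Elovl6 and Me1, the lipogenic protein Thrsp, and the transcription factors Srebf1 and Mlxipl. All 10 were among the 25746 genes of the deposited tables and all 10 passed the filter on low counts, which left 12330 genes for testing. RNA sequencing of liver covered 24 mice in 4 groups of 6, male wild-type (mWT), male knockout (mKO), female wild-type (fWT) and female knockout (fKO). All mice had the strain background C57/BL6N, were 12 weeks old, ate standard chow freely and were fasted for 4 h before sampling. The wild-type mice carried the intact cluster and the knockout mice were homozygous for its deletion by CRISPR/Cas9. The line was bred from 1 male founder through heterozygous matings, so the knockout stands for 1 editing event, and the deletion was present in every tissue. The question put to these genes was whether loss of the Mup proteins, which liver makes in large amounts and more so in males, went with altered lipogenic gene expression in either sex.

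De novo lipogenesis turns surplus carbohydrate into fatty acids, and liver is one of its main sites. Citrate exported from mitochondria is split to acetyl-CoA, acetyl-CoA is carboxylated to malonyl-CoA, and fatty acid synthase joins these units into palmitate, which is then lengthened and desaturated. Insulin acting through SREBP-1c, the product of Srebf1, and sugar acting through ChREBP, the product of Mlxipl, raise transcription of these enzymes after feeding, and both inputs decline in fasting.

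The members lie on chromosomes 3, 5, 7, 9, 11 and 19 (GRCm38, GENCODE M21), 4 of them on chromosome 11 at separate loci. Fasn lies on the minus strand at chr11:120805846-120824547, Acly on the minus strand at chr11:100476353-100528000, Scd1 on the minus strand at chr19:44394455-44407879 and Me1 on the minus strand at chr9:86581371-86695953. Acaca lies on the plus strand at chr11:84129672-84401651, Acacb on the plus strand at chr5:114146535-114250761 and Elovl6 on the plus strand at chr3:129532355-129638495. Thrsp lies on the minus strand at chr7:97412938-97417730, Srebf1 on the minus strand at chr11:60199089-60222581 and Mlxipl on the plus strand at chr5:135089890-135138382. Srebf1 overlaps Rai1 on the opposite strand, and whether the counting used strand is not given in the sources used here, so reads of the overlapped part cannot be told apart. Acaca, Elovl6 and Me1 overlap predicted genes of the annotation, Gm11437 and Gm37391, Gm43072 and Gm38230. Reads were counted per gene, so the SREBP-1a and SREBP-1c forms of Srebf1, and the alpha and beta forms of Mlxipl, were not separated.

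Start-site sequence is shown for Fasn and Acly, whose levels ran most closely together from mouse to mouse, and for both transcription factor genes. RefSeq windows (GRCm38.p6) reaching from 250 bases before to 50 bases after a start site were held for 9 of the 10 members, in 13 windows, and not for Scd1. The 250 bases before the start are printed 5′ to 3′ on the strand of the gene, with capitals marking the CCAAT box, the GC box (GGGCGG) and the E-box (CACGTG) on either strand. The windows were chr11:120824548-120824797 for Fasn, chr11:100528001-100528250 for Acly, chr11:60210472-60210721 for the most downstream of the 3 start sites of Srebf1, and chr5:135089640-135089889 for the start of Mlxipl that coincides with the start of the annotated gene.
Fasn: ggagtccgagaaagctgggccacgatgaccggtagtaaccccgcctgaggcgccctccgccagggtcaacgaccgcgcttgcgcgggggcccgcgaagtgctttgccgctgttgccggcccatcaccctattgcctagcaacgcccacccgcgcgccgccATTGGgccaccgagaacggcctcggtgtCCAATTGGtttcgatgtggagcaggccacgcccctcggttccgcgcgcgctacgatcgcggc
Acly: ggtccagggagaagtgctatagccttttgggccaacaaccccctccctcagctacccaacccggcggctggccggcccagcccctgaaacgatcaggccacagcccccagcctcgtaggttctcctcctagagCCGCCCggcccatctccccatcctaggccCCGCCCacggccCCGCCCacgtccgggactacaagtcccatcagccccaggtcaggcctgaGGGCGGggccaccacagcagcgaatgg
Srebf1: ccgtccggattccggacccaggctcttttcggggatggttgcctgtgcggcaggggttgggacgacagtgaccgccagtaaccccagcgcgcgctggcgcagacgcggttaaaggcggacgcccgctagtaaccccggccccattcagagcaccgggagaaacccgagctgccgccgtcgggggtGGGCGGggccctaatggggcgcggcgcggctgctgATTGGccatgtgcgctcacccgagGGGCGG
Mlxipl: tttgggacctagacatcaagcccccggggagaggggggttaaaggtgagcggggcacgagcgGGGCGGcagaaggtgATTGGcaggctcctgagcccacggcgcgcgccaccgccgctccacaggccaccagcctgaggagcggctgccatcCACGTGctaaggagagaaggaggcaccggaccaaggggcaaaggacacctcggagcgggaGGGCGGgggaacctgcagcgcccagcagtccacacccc

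The CCAAT box was held by 8 of the 13 member windows, against 37.4% of 32851 windows of the same length. These windows belonged to 7 of the 9 members (Acacb, Acly, Fasn, Me1, Mlxipl, Srebf1 and Thrsp). Shares over all windows are per window and have no match for counts of members, since Srebf1, Me1 and Mlxipl had more than 1 window. The Acly copy lay at position 37, after the start and outside the printed bases. The Fasn window held it at positions -90, -62 and -59 relative to the start, the last of these overlapping the one before on opposite strands. The GC box GGGCGG was held by 5 of the 13 windows and by 4 members (Acly, Me1, Mlxipl and Srebf1), against 35.7% of all windows, and 4 copies lay in the Acly window. The E-box CACGTG, of the type bound by ChREBP with its partner Mlx and by the USF factors, was found in 1 member window, that of Mlxipl at position -98, and in 7.15% of all windows. The sterol-response-like letters TCACCCCAC, and a longer sterol-response-like form that can overlap them, were in none of the 13 windows and in 0.551% and 0.234% of all windows. A match of letters is a description of these windows and shows no binding.

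Total counts per library ran from 15361901 to 26261394. Levels are given as CPM, the share of a library's counts that fell on a gene, scaled by the trimmed mean of M-values (TMM), and 3 counts amounted to 0.195 CPM in the shallowest library. The summed Mup genes, the check of the genotype labels, had 17030 to 37390 CPM in mWT and 3395 to 5259 CPM in fWT, and 0 reads in 5 of 6 mKO and 4 of 6 fKO libraries, with at most 11 reads in any knockout library. Summed hepatocyte markers (7 of the 8 listed genes) took 94500 to 149665 CPM in all 24 libraries. Of the 8 adipocyte genes listed, the defining ones were at or near 0, with Lep at 0 in 24 libraries and Adipoq at 0 in 17 and at most at 0.106 CPM. Plin1, Retn, Aqp7 and Cfd were at 0.424 CPM or less and Slc2a4 at 0.0663 to 1.15 CPM, while Car3, a carbonic anhydrase that liver also expresses, had 1126 to 4449 CPM and made up nearly all of the list's sum.

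Per kilobase of exon, the members spanned a wide range of levels. Scd1, the delta-9 desaturase that makes monounsaturated fatty acids, was at the top with 2040 ± 1130 CPM per kb (SD, n = 24 mice), at the 99.8th percentile of the genes tested. Thrsp, a small protein that supports lipogenic enzyme activity, followed with 214 ± 118 CPM per kb. Acly, the citrate-splitting enzyme, had 50.4 ± 14.7 CPM per kb, and Me1, the malic enzyme that supplies NADPH, had 49.0 ± 22.2 CPM per kb. Mlxipl had 39.9 ± 10.7, Fasn 32.2 ± 17.0, Srebf1 24.8 ± 6.95 and Elovl6, which lengthens palmitate, 19.6 ± 7.14 CPM per kb. The acetyl-CoA carboxylases were lowest, with 7.55 ± 2.32 CPM per kb for Acacb, the mitochondria-associated form, and 4.39 ± 0.963 CPM per kb for Acaca, the cytosolic form. In all 24 mice Scd1 exceeded Thrsp, Thrsp exceeded Acly, Elovl6 exceeded Acacb and Acacb exceeded Acaca. Neighbours from Acly to Elovl6 did not keep their order in every mouse, with the higher gene above the lower in 16 mice for Acly over Me1, 13 for Me1 over Mlxipl, 19 for Mlxipl over Fasn, 18 for Fasn over Srebf1 and 18 for Srebf1 over Elovl6. These levels rest on the annotated exon length and not on the transcripts used in liver.

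**Figure D1:**
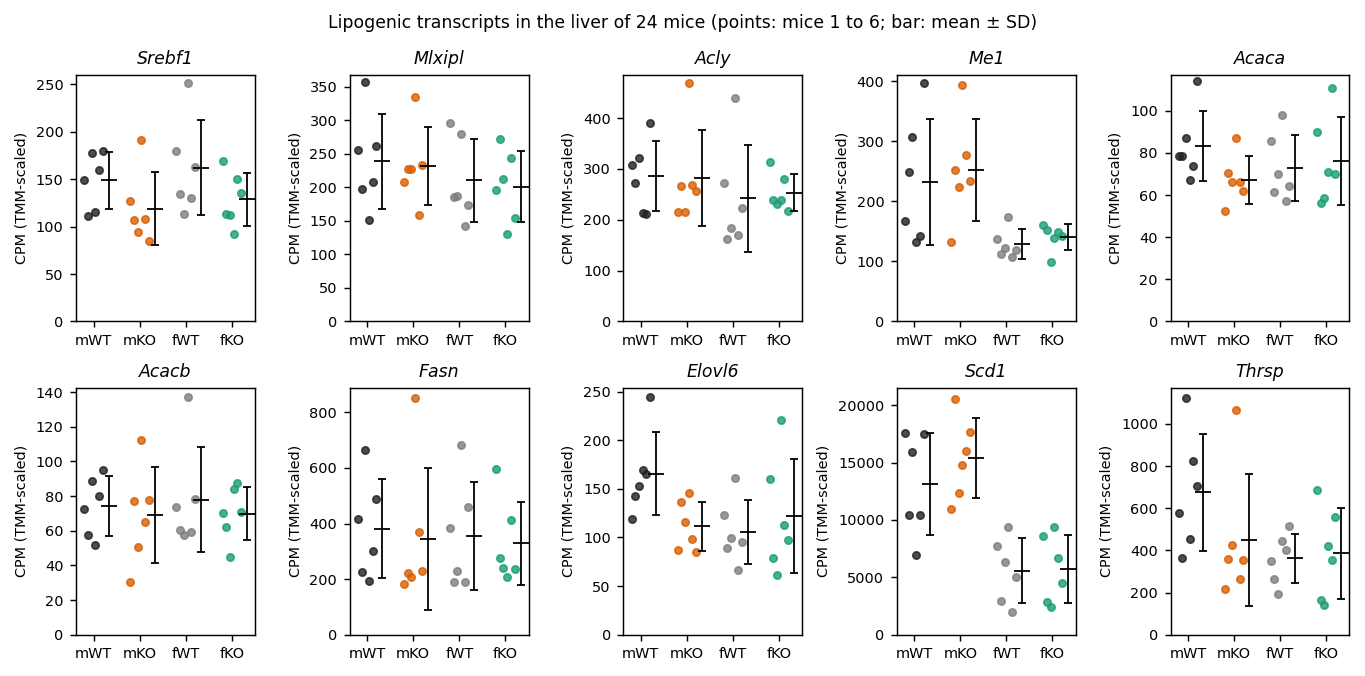
TMM-scaled CPM (vertical axis, linear from 0) of the 10 lipogenic genes in each of the 24 mice, by group on the horizontal axis. Points are mice 1 to 6 from left to right within a group, and the bar beside them is the mean with its SD (n = 6). Male points of Scd1 lie from 6977 to 20580 CPM and female points from 1955 to 9410 CPM, while knockout and wild-type points of the same sex overlap for all 10 genes.

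The knockout was not accompanied by a detectable change of any of the 10 genes in either sex. By the edgeR quasi-likelihood fit (Benjamini-Hochberg), 0 of 10 members had an adjusted p under 0.05 in mKO against mWT, where 0.211% of the 12330 genes did, and 0 of 10 in fKO against fWT, where 0.0892% did. DESeq2 and limma-voom also called 0 of 10 in both sexes. At an unadjusted p under 0.01, the limit used in the study's methods, the counts were again 0 and 0, against 3.52% of all genes in males and 0.876% in females. At an unadjusted p under 0.05, Elovl6 was the 1 member in males and there was none in females, against 10.6% and 4.87% of all genes. The groups overlapped for all 10 members in both sexes, while 1.09% of all genes in males and 0.349% in females had groups that did not overlap. The median log2 fold change of the members was -0.13 in males, with 8 of 10 below 0, and 0.05 in females, with 4 of 10 below 0, and the medians over all genes were -0.0021 and -0.0026. Each interval given for a log2 fold change is a 95% confidence interval for a difference between group means. Its width was estimated from the spread between mice, and it is not the range of the mice. In 35 alternative analyses (other tools, scalings, filters and fits, or 1 mouse left out), 5 of the 10 members changed sign at least once in males and 8 of 10 in females.

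Among the regulators, Srebf1 had point estimates below 0 in both sexes. Its level was 111 to 180 CPM (median 154) in mWT and 85.0 to 191 CPM (median 108) in mKO. In females it was 113 to 252 CPM (median 149) in fWT and 91.9 to 169 CPM (median 124) in fKO. The ranges overlapped in both sexes, and the highest mKO mouse stood above every mWT mouse. The log2 fold change was -0.32 (95% interval -0.75 to 0.10) in males and -0.33 (-0.76 to 0.09) in females. Averaged over both sexes it was -0.33, with an interval of -0.63 to -0.03 (adjusted p = 0.467, edgeR quasi-likelihood fit, Benjamini-Hochberg). In that average 0 of 10 members were called at an adjusted p under 0.05, against 0.17% of all genes, and Srebf1 was the 1 member with an unadjusted p under 0.05, against 9.57% of all genes. None had one under 0.01, against 2.83%. The unadjusted p was under 0.05 in 23 of 34 alternative analyses. Without fWT mouse 4 the average was -0.24 (unadjusted p = 0.082 in the edgeR fit) and the female value -0.17, and with the mouse number as a block the unadjusted p was 0.0716 in edgeR. Without mKO mouse 4, whose lipogenic levels stood apart, the average was -0.42 (adjusted p = 0.296, edgeR), the male value -0.51, and the unadjusted p of the average fell under 0.01.

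Mlxipl had point estimates close to 0 in both sexes. It had 152 to 357 CPM (median 232) in mWT and 159 to 335 CPM (median 228) in mKO, and 142 to 296 CPM (median 187) in fWT and 130 to 273 CPM (median 204) in fKO. The log2 fold change was -0.04 (95% interval -0.50 to 0.41) in males and -0.07 (-0.52 to 0.39) in females, intervals that hold moderate changes of either sign. Over the alternatives it ran from -0.18 to 0.11 in males.

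For the enzymes of the citrate and malonyl-CoA steps and of NADPH supply, point estimates lay between -0.31 and 0.13 on the log2 scale in both sexes. Acly had 212 to 390 CPM (median 289.9) in mWT, 216 to 469 CPM (median 261) in mKO, 163 to 441 CPM (median 204) in fWT and 217 to 314 CPM (median 239) in fKO. Its log2 fold change was -0.02 (95% interval -0.49 to 0.45) in males and 0.06 (-0.41 to 0.53) in females. The male value was -0.23 without mKO mouse 4 and the female value 0.32 without fWT mouse 4. Acaca had the narrowest intervals, with a log2 fold change of -0.31 (-0.65 to 0.04) in males and 0.06 (-0.28 to 0.40) in females. Acacb, whose malonyl-CoA restrains mitochondrial uptake of fatty acids, had -0.10 (-0.65 to 0.44) in males and -0.15 (-0.70 to 0.39) in females. Its female value turned to 0.085 without fWT mouse 4, and its male value was -0.30 without mKO mouse 4. Me1 had 0.12 (-0.40 to 0.63) in males and 0.13 (-0.39 to 0.65) in females, and over the alternatives -0.053, without mKO mouse 4, to 0.34 in males.

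Fasn, fatty acid synthase, had the widest intervals of the 10 genes and, with Thrsp, the largest spread among mice of a group. The SD of its log2 values around the group means was 0.72, against 0.728 for Thrsp. It had 194 to 665 CPM (median 358) in mWT and 182 to 850 CPM (median 227) in mKO. Female levels were 189 to 683 CPM (median 306) in fWT and 209 to 597 CPM (median 259) in fKO. The highest mKO mouse exceeded the highest mWT mouse although the mKO median was the lowest of the 4 groups. The log2 fold change was -0.15 (95% interval -1.04 to 0.74) in males and -0.11 (-1.0 to 0.78) in females, and the male value was -0.65 without mKO mouse 4 (adjusted p = 0.622 by the edgeR quasi-likelihood fit (Benjamini-Hochberg)). The female value turned to 0.18 without fWT mouse 4 and was -0.37 at the lowest of the alternatives.

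Elovl6 had the smallest p of the members in males, and its point estimates had opposite signs in the sexes. Its levels were 119, 143, 153, 165, 169 and 245 CPM in the 6 mWT mice and 84.9, 87.3, 98.1, 115, 136 and 146 CPM in the 6 mKO mice. In 4 mWT mice Elovl6 lay above every mKO mouse, and in 4 mKO mice it lay below every mWT mouse. In females it was 66.1 to 162 CPM (median 97.5) in fWT and 61.7 to 221 CPM (median 105) in fKO, with the fWT range inside the fKO range. The log2 fold change was -0.57 ± 0.264 (SE) in males, with adjusted p = 0.449, and 0.20 ± 0.264 (SE) in females, with adjusted p = 0.957 (edgeR quasi-likelihood fit, Benjamini-Hochberg). The difference between the sexes was -0.78 (95% interval -1.55 to -0.0024), with adjusted p = 0.831 in the same edgeR fit. For that difference 0 of 10 members were called at an adjusted p under 0.05, against 0.00811% of all genes, and Elovl6 was the 1 member with an unadjusted p under 0.05, against 5.96% of all genes. That unadjusted p was under 0.05 in 16 of 34 alternative analyses, and the one of the male effect in 28 of 35.

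Scd1 and Thrsp had wide intervals that held both directions. Scd1 had a log2 fold change of 0.23 (95% interval -0.53 to 0.99) in males and 0.04 (-0.72 to 0.80) in females. Thrsp had 362 to 1122 CPM (median 642) in mWT and 219 to 1067 CPM (median 357) in mKO. In 5 of the 6 mKO mice it was at 425 CPM or less, and mKO mouse 4 alone reached 1067 CPM. Its log2 fold change was -0.59 (-1.45 to 0.28) in males with adjusted p = 0.674, and it was -1.05 without mKO mouse 4 with adjusted p = 0.318, both by the edgeR quasi-likelihood fit (Benjamini-Hochberg). In females Thrsp had 193 to 516 CPM (median 375) in fWT and 139 to 684 CPM (median 388) in fKO, and the log2 fold change was 0.10 (-0.76 to 0.96).

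**Figure D2:**
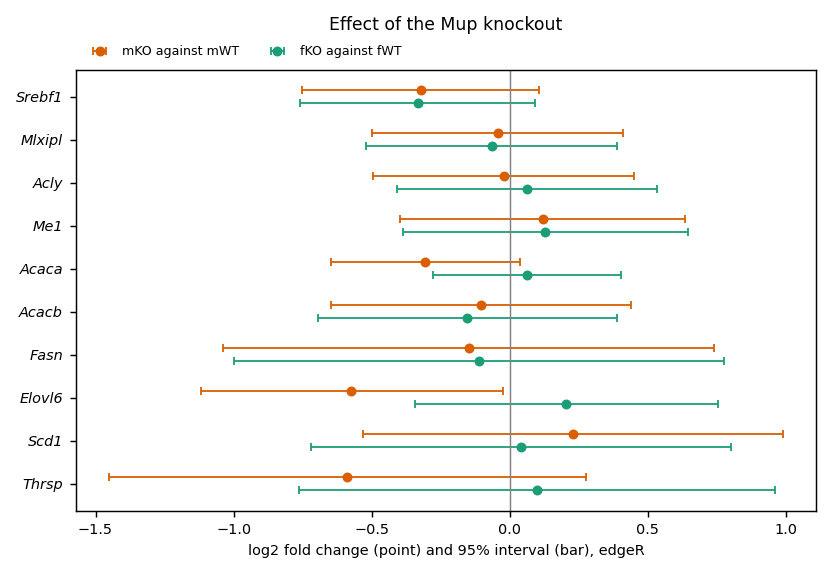
Log2 fold change of knockout against wild-type mice (horizontal axis, points) with its 95% interval (bars) for the 10 lipogenic genes, males and females separately (n = 6 per group). The interval of Elovl6 in males, from -1.12 to -0.0242, is the one that does not include 0.

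Between the sexes, 2 of the 10 genes were called in both genotypes, Scd1 and Me1. That share was near the one over all genes called in either direction. In WT mice both were higher in males at an adjusted p under 0.05 by the edgeR quasi-likelihood fit (Benjamini-Hochberg), 2 of 10 where 8.51% of all genes were higher in males and 17.3% differed in either direction. In KO mice it was the same 2 genes, where 7.26% of all genes were higher in males and 14.4% differed. The median log2 difference of the members, male against female, was 0.22 in WT and 0.11 in KO mice, against -0.0020 and -0.0045 over all genes. At an unadjusted p under 0.01 the counts were also 2 of 10 in each genotype, against 18.2% of all genes in WT and 15.9% in KO mice in either direction.

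Scd1 reached 6977 to 17573 CPM (median 13187) in mWT and 1955 to 9410 CPM (median 5692) in fWT. In KO mice it reached 10992 to 20580 CPM (median 15398) in males and 2428 to 9409 CPM (median 5564) in females. In WT mice, 5 of the 6 males lay above every female and the lowest male lay inside the female range, and the groups of 7.7% of all genes did not overlap. Every mKO mouse lay above every fKO mouse, and the groups of 7.26% of all genes did not overlap. The male level was 2.36-fold higher in WT mice (log2 1.24 ± 0.37 SE, adjusted p = 0.0242) and 2.69-fold higher in KO mice (log2 1.43 ± 0.372 SE, adjusted p = 0.0117), by the edgeR quasi-likelihood fit (Benjamini-Hochberg). The WT difference passed in 32 of 35 alternative analyses and the KO difference in 35 of 35. It was lost in WT mice without mWT mouse 6 (adjusted p = 0.0544), without fWT mouse 2 (adjusted p = 0.0512) and with each genotype fitted on its own (adjusted p = 0.0515), all in edgeR. The difference between the genotypes was 0.19 (95% interval -0.88 to 1.26), with adjusted p = 0.97 in the edgeR fit.

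Me1 had 133 to 396 CPM (median 208) in mWT and 108 to 174 CPM (median 121) in fWT, and 132 to 394 CPM (median 243) in mKO and 99.4 to 161 CPM (median 146) in fKO. Females spread 1.62-fold and males 2.98-fold from the lowest to the highest mouse in either genotype. Of the 6 males, 3 lay above every female in WT mice and 5 in KO mice. The remaining males fell inside the female range of their genotype. The male level was 1.81-fold higher in WT mice (log2 0.85 ± 0.25 SE, adjusted p = 0.021) and 1.79-fold higher in KO mice (log2 0.84 ± 0.25 SE, adjusted p = 0.0256), by the edgeR quasi-likelihood fit (Benjamini-Hochberg). The WT difference passed in 31 of 35 alternative analyses and the KO difference in 32 of 35. The WT call was lost without mWT mouse 3 (adjusted p = 0.0537) or mWT mouse 6 (adjusted p = 0.0705), with each genotype fitted on its own (adjusted p = 0.0532) and with the mouse number as a block (adjusted p = 0.0887), all in edgeR. The KO call was lost without mKO mouse 4 (adjusted p = 0.0837) or fKO mouse 3 (adjusted p = 0.0597) and with the block (adjusted p = 0.0842), also in edgeR. In the fits without a mouse that lost the call the log2 difference was 0.63 to 0.76.

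The other 8 members were not called between the sexes in either genotype. Elovl6 was 1.57-fold higher in mWT than in fWT (log2 0.65, 95% interval 0.10 to 1.20, adjusted p = 0.0985 by the edgeR quasi-likelihood fit (Benjamini-Hochberg)), and passed without fWT mouse 4 (log2 0.81, adjusted p = 0.0481). In KO mice the log2 difference of Elovl6 was -0.13 (-0.68 to 0.42). Thrsp was 1.87-fold higher in mWT than in fWT (log2 0.90, 95% interval 0.03 to 1.77, adjusted p = 0.148), and its log2 difference in KO mice was 0.21 (-0.65 to 1.07), in the same edgeR fit. With Scd1 and Me1, these made 4 of 10 members with an unadjusted p under 0.05 in WT mice, against 30.6% of all genes, and 2 of 10 in KO mice, against 28.4%. Srebf1, Mlxipl, Fasn, Acly, Acaca and Acacb had log2 differences between -0.18 and 0.24 in the 2 genotypes.

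**Figure D3:**
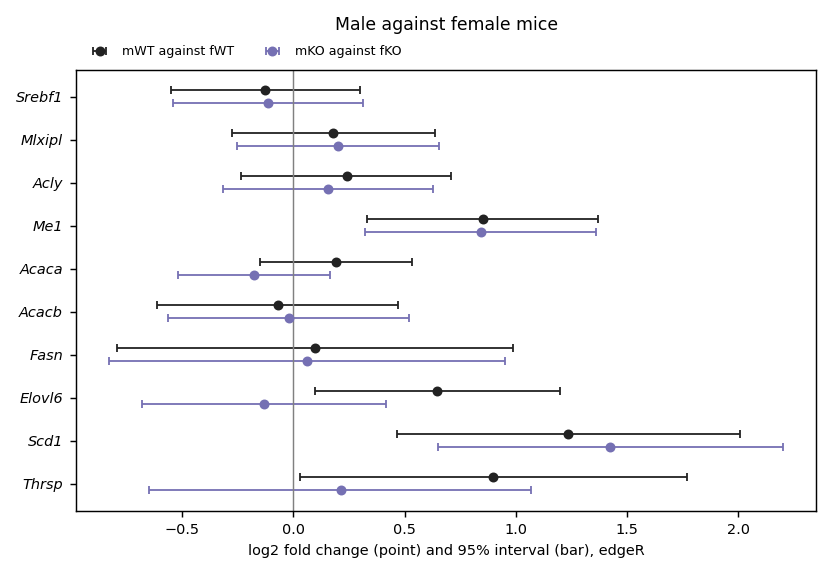
Log2 fold change of males against females (horizontal axis, points) with its 95% interval (bars) for the 10 lipogenic genes in wild-type and knockout mice (n = 6 per group). Scd1 at 1.24 and 1.43 and Me1 at 0.85 and 0.84 are the genes whose intervals stay above 0 in both genotypes.

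Markers of other liver cells also differed by sex, more of them in WT than in KO mice for Kupffer and endothelial cells. Summed Kupffer cell markers (6 genes) ran from 78.3 to 157 CPM in mWT and from 142 to 260 CPM in fWT, and 4 of 6 were called, all lower in males, at an adjusted p under 0.05 by the edgeR quasi-likelihood fit (Benjamini-Hochberg), against 17.3% of all genes in either direction. In KO mice the sums were 74.2 to 207 CPM in males and 116 to 209 CPM in females, and 0 of 6 were called (Vsig4, the lowest in p, had log2 -0.59 with adjusted p = 0.124), against 14.4% of all genes. Summed endothelial markers ran from 125 to 155 CPM in mWT and from 141 to 190 CPM in fWT, and 3 of 6 were lower in WT males and 1 of 6 in KO males. Summed stellate cell markers ran from 205 to 329 CPM in mWT and from 284 to 376 CPM in fWT, and 2 of 6 were lower in WT males and 3 of 6 in KO males. Of the adipocyte list, 2 genes were tested, and they had opposite signs. Car3, which liver also expresses, was higher in males in both genotypes (log2 1.02 in WT and 1.36 in KO mice, adjusted p = 1.66e-05 and 2.56e-07 in the edgeR fit). Slc2a4, at 1.15 CPM or less, had log2 -0.21 in WT and -1.24 in KO mice and was called in neither. Whether the marker differences themselves differ between the genotypes is not shown by these counts. In bulk liver, fewer cells of a type and less RNA per cell cannot be told apart, and the part of these values in the difference of Scd1 and Me1 was not tested.

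The members differed more from mouse to mouse than most genes. Their biological coefficient of variation in the edgeR fit ran from 0.201 for Acaca to 0.501 for Fasn, with Thrsp at 0.487 and Scd1 at 0.43, against a median of 0.13 over all genes tested. Among the 500 genes nearest in level, the members stood between the 91.2nd percentile (Acly) and the 97.6th (Fasn). The spread was shared rather than private to each gene. Within each group the same few mice held the highest or the lowest values of most members. In mKO, mouse 4 was highest for 9 of 10 members (all but Scd1) and mouse 1 lowest for 7. In fWT, mouse 4 was highest for 8 members and mouse 5 lowest for 5. In mWT, mouse 6 was highest for 6 members and mouse 4 lowest for 6, and in fKO, mouse 1 was highest for 5 and mouse 3 lowest for 5.

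**Figure D4:**
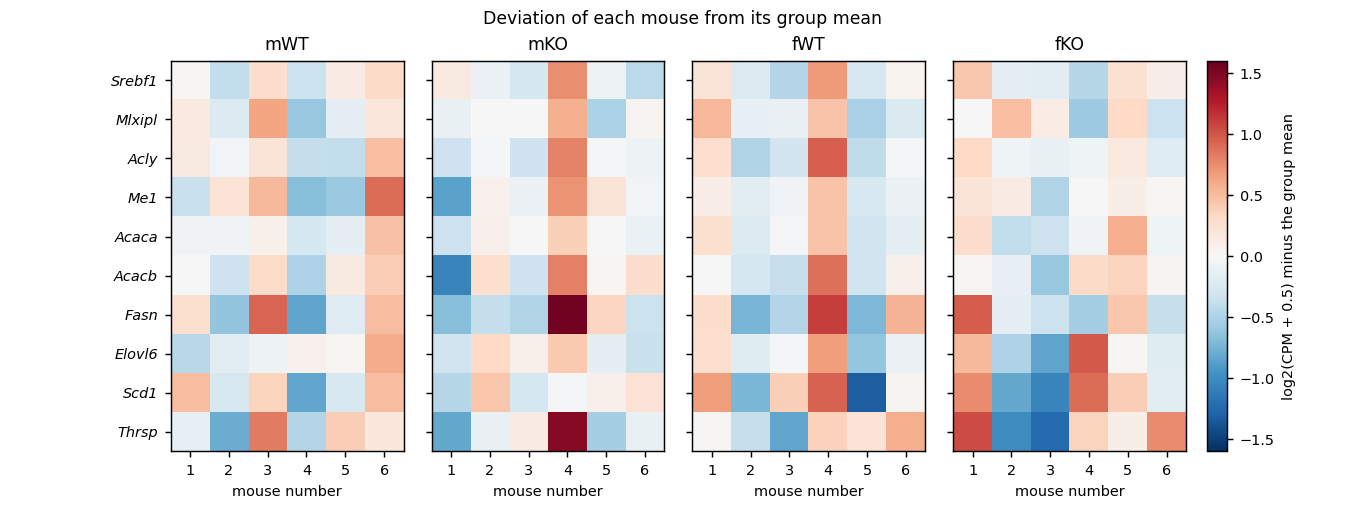
Deviation of each mouse from its group mean, as log2(CPM + 0.5) (colour), for the 10 lipogenic genes (rows) and mice 1 to 6 (columns) of each group. Red columns such as mKO mouse 4, highest for 9 of 10 genes, and blue columns such as mKO mouse 1, lowest for 7, show that whole sets of genes deviated together.

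To describe this, each gene's log2(CPM + 0.5) was centred on its group mean and the 45 pairs of members were correlated over the 24 mice. All 45 pairs had a positive Pearson r, from 0.085 to 0.877 with a median of 0.621, and 39 pairs were positive within each of the 4 groups. In a permutation test (100000 shuffles of mice within groups, two-sided, adjusted over the 45 pairs), 38 pairs had an adjusted p under 0.05 for Pearson's r and 35 for both r and Spearman's rho. The 24 points share group means and library scaling, and the coefficients within a group rest on 6 mice each. The share of such pairs among other genes was not computed. These counts therefore do not show that the covariation is particular to the members. Leaving out for each pair the 2 mice farthest from the median of the first gene left r between 0.107 and 0.831, with a median of 0.574.

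Fasn and Acly, the enzymes on either side of the malonyl-CoA step, were the closest pair, with r = 0.877 and rho = 0.86 (permutation p = 1e-05 for both, the smallest that 100000 shuffles can give, adjusted p = 0.000112 and 0.00045) and r = 0.819 without the 2 farthest mice. Their r within groups was 0.754 in mWT, 0.954 in mKO, 0.927 in fWT and 0.945 in fKO. Acaca and Acly, consecutive enzymes of the cytosolic pathway, had r = 0.79 and rho = 0.796 (permutation p = 1e-05 and 3e-05, adjusted p = 0.000112 and 0.00045). The pairs of Acly, Acaca, Acacb and Me1 with all other members each passed for r.

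Of the regulators, Srebf1 ran with Fasn at r = 0.854 and rho = 0.775 (permutation p = 2e-05 and 9e-05, adjusted p = 0.00018 and 0.00081), and r was 0.762 without the 2 farthest mice. Its r with Acly was 0.779 (adjusted permutation p = 0.00105) and with Acaca 0.665 (adjusted permutation p = 0.00263). With the desaturase and the elongase it was lower, at 0.383 for Scd1 (rho = 0.37, adjusted permutation p = 0.0915 and 0.107) and 0.377 for Elovl6 (rho = 0.359, adjusted permutation p = 0.0885 and 0.114). Scd1 and Elovl6 ran with each other at r = 0.727 and rho = 0.655 (adjusted permutation p = 0.00177 and 0.00657), mostly in females, where r was 0.928 in fWT and 0.956 in fKO against 0.0316 in mWT and 0.296 in mKO. Whether those within-group coefficients differ was not tested.

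Mlxipl was the member least tied to the rest. Its r was 0.65 with Acly and 0.648 with Fasn (adjusted permutation p = 0.00263 and 0.00336), but 0.311 with Scd1, 0.201 with Thrsp and 0.085 with Elovl6, with adjusted permutation p = 0.189, 0.381 and 0.72. In fKO these 3 coefficients were negative, at -0.519, -0.567 and -0.624 over 6 mice. In fWT they were 0.85, 0.0784 and 0.916, in mWT 0.871, 0.755 and -0.016, and in mKO 0.0222, 0.874 and 0.601. Whether these coefficients differ between groups was not tested.

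**Figure D5:**
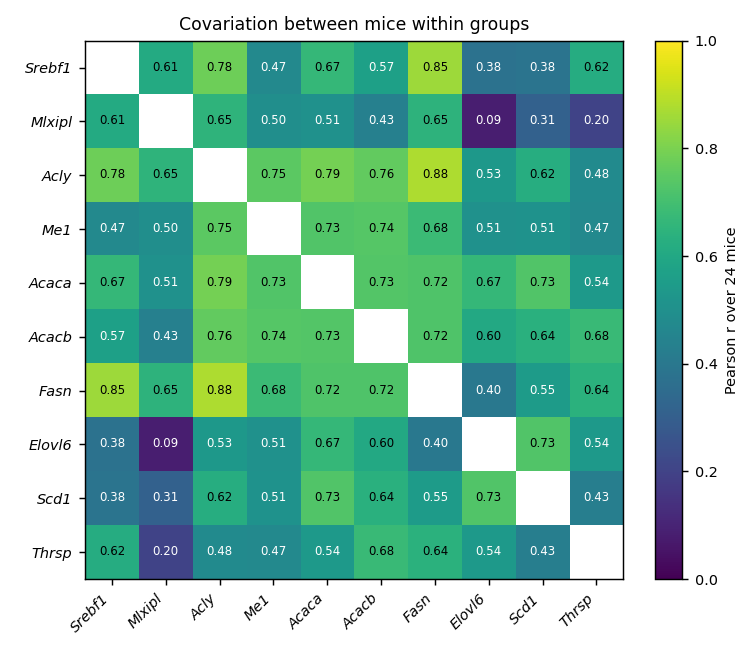
Pearson r (colour and number) between the group-centred log2(CPM + 0.5) of each pair of the 10 lipogenic genes over 24 mice. Fasn with Acly, at 0.877, and Fasn with Srebf1, at 0.854, are the highest values, and the row of Mlxipl holds the lowest, down to 0.085.

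The genes most like the members from mouse to mouse were sought over all 12330 genes tested by their r with the mean of the members' standardized, centred values (24 mice, a description). Acly (0.914), Fasn (0.895), Acaca (0.893) and Acacb (0.867) took the first 4 ranks, and each member is itself part of that mean. The 8 closest genes outside the list were Slc25a44 (0.854), Chrna4 (0.849), Acss2 (0.837), Pygl (0.833), Gpam (0.804), Cyb5r3 (0.797), Dock6 (0.761) and Pnpla3 (0.758). Acss2 makes acetyl-CoA from acetate, Pygl is liver glycogen phosphorylase, Gpam starts glycerolipid synthesis and Pnpla3 is a lipid droplet protein. None of the 8 was called in the knockout comparison of either sex, and Gpam (log2 0.51, adjusted p = 0.0136) and Cyb5r3 (log2 0.44, adjusted p = 0.00133) were higher in mWT than in fWT by the edgeR quasi-likelihood fit (Benjamini-Hochberg). Pnpla3 rested on low counts, with means of 0.543 to 1.30 CPM.

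Other genes of the pathway were read from 5 lists, and none of their 66 genes was called in either knockout comparison at an adjusted p under 0.05 by the edgeR quasi-likelihood fit (Benjamini-Hochberg), with 11 of 66 in males and 4 of 66 in females at an unadjusted p under 0.05, against 10.6% and 4.87% of all genes. At an unadjusted p under 0.01 in males 2 were higher and 4 lower, against 3.52% of all genes in either direction. In males DESeq2 called 2 of the 66, Insig2 and Cyp4a14, and limma-voom called 1, Cyp4a14, and in females neither called any. Of 11 genes that supply substrate and NADPH, none had an unadjusted p under 0.01 in males. Mpc1, a subunit of the mitochondrial pyruvate carrier, had a log2 fold change of 0.18 (adjusted p = 0.433) and Mpc2, the other subunit, 0.09 (adjusted p = 0.744). Of 18 genes acting upstream of SREBP-1c and ChREBP, 2 had an unadjusted p under 0.01 in males. Insig2, which holds the SREBP complex in the endoplasmic reticulum, had 162 ± 83.5 CPM in mWT and 341 ± 67.6 CPM in mKO (SD, n = 6 each), a log2 fold change of 1.08 with adjusted p = 0.146 in the edgeR fit. Sik1, a kinase of the cAMP response, had 33 ± 10.1 CPM in mWT and 16.6 ± 4.04 CPM in mKO (SD, n = 6 each), 0.502-fold of the mWT level with adjusted p = 0.217 in the edgeR fit.

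Of 11 genes that control acetyl-CoA carboxylase or malonyl-CoA, 2 had an unadjusted p under 0.01 in males, Brca1 (log2 -0.91, adjusted p = 0.189), whose protein binds phosphorylated acetyl-CoA carboxylase, and the AMP kinase subunit Prkag2 (log2 -0.30, adjusted p = 0.217). Of 15 further targets of SREBP-1c or ChREBP, 1 did, the delta-6 desaturase Fads2 (log2 -0.41, adjusted p = 0.279), and the elongase Elovl5 had log2 0.58 (adjusted p = 0.302). Of 11 fasting-response genes, 1 did, the fatty acid hydroxylase Cyp4a14 (log2 2.85, adjusted p = 0.152), at 46.8 ± 68.3 CPM in mWT and 337 ± 292 CPM in mKO (SD, n = 6 each). These adjusted p come from the edgeR fit. In females 0 of the 66 had an unadjusted p under 0.01, and 4 had one under 0.05: Idh1 (log2 0.19), Mbtps2 (log2 0.22), Mlycd (log2 -0.18) and Pdk4 (log2 0.87), each with adjusted p = 0.929 in the edgeR fit. The summed fasting-response genes overlapped in all 4 groups, with 9135 to 13389 CPM in mWT, 8823 to 13001 in mKO, 7991 to 14494 in fWT and 9032 to 12980 in fKO.

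The same lists held sex differences by the edgeR test at an adjusted p under 0.05. Of the 66 genes, 5 were higher and 4 lower in WT males, where 17.3% of all genes were called, and 3 higher and 9 lower in KO males, where 14.4% were. In WT mice 4 of the 11 substrate and NADPH genes were called, Mpc1 (log2 -0.57) and Mpc2 (log2 -0.53) lower in males, and the citrate carrier Slc25a1 (log2 0.32) and the NADPH-forming Idh1 (log2 0.29) higher. Of the 18 upstream genes 2 were called, the insulin receptor substrate Irs2 lower (log2 -1.21) and the SREBP-cleaving protease Mbtps2 higher in males (log2 0.28). The other 3 lists had 1 call each, Prkaa2 (log2 0.39), Gpam (log2 0.51) and Cyp4a14 (log2 -3.69). The gene of next smallest p in each was Prkab1 (log2 -0.22, adjusted p = 0.145), Dgat2 (log2 -0.22, adjusted p = 0.0676) and G6pc (log2 0.64, adjusted p = 0.0557) in the edgeR fit. In KO mice the calls were Mpc2 (log2 -0.53), Mpc1 (log2 -0.36), Taldo1 (log2 0.38) and Tkt (log2 0.38) among substrate and NADPH genes, and Sik1 (log2 -1.36), Insig2 (log2 1.03) and Irs2 (log2 -0.90) upstream. They also included Brca1 (log2 -1.01) and Prkag2 (log2 -0.49) among the carboxylase controls, and Acsl3 (log2 -0.74), Fads1 (log2 -0.35) and Dgat2 (log2 -0.30) among the further targets. No fasting-response gene was called in KO mice, with Angptl4 (log2 0.57, adjusted p = 0.179) and G6pc (log2 0.39, adjusted p = 0.273) lowest in p in the edgeR fit. Genes that passed in 1 genotype and not in the other are not thereby shown to differ, and for Sik1, Insig2 and Brca1 the difference between the genotypes had no adjusted p under 0.05.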

How the data were processed

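Liver mRNA of 24 mice was sequenced (TruSeq Stranded mRNA libraries, 100-base single-end reads, 1 multiplex). The authors deposited 1 table of raw read counts per gene and mouse, made per the labels and methods with bcl2fastq 2.19, fastp 0.20, STAR 2.7a on GRCm38.p6 and featureCounts. The annotation release, strand setting and treatment of multi-mapping reads are not given in the sources used here. Groups came from sex and genotype labels. The 12330 genes that reached 0.66 CPM in 6 or more libraries were fitted with edgeR 4.0.16 (TMM, robust quasi-likelihood, 1 mean per group, R 4.3.3). The 6 contrasts gave the knockout effects, their mean and difference, and the sex differences, with Benjamini-Hochberg adjustment over all genes. Correlations used Python 3.11.15 and numpy 2.4.6. The fit was tested on simulated counts.

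Members and gene lists were chosen with earlier results of these data known. Named were all members, of each list the up to 4 largest changes with an adjusted p under 0.05 or else the 2 smallest p, and the 8 genes most correlated with the members. Some genes of the lists are not reported here by name. Each mouse is 1 library, no pair of libraries of a group agreed within counting noise, and the intervals for log2 fold changes were estimated from the spread between mice. Alternatives were DESeq2 1.42.0, limma-voom (limma 3.58.1), other scalings and filters, a non-robust fit, separate fits, removal of Mup genes, a replicate block, each mouse left out, and, chosen after seeing the data, the deviances of edgeR 4.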

Additional observations from a re-analysis of the deposited data

Results flagged for a closer look

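In 5 of 40 combinations of gene and group, 1 mouse lay far from the other 5 by the gap to its neighbour over the range of the group. The limit flags about 1 in 20 groups of independent, normally distributed values. The CPM were not transformed and the genes ran together from mouse to mouse, so that rate need not hold here. Of these, 3 concerned mKO mouse 4: Fasn at 850 CPM with the next mouse at 369, Acly at 469 CPM with the next at 268, and Thrsp at 1067 CPM with the next at 425. Acacb was high in fWT mouse 4, at 137 CPM with the next at 78.6, and Me1 was low in fKO mouse 3, at 99.4 CPM with the next at 139.8.

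The library of mKO mouse 4 had 19036607 counts, inside the range of 15361901 to 24684788 of the other mKO mice. Its summed hepatocyte markers were 101769 CPM (others 111504 to 128529), Kupffer markers 74.2 CPM (102 to 207), stellate markers 195 CPM (235 to 280) and cholangiocyte markers 30.9 CPM (32.6 to 47.3), all below the other mKO mice. Its adipocyte list, nearly all Car3, was above them at 4450 CPM (3254 to 4162), as were Igfbp1, which insulin lowers, at 360 CPM (61.5 to 304) and G6pc, a gluconeogenic enzyme, at 1184 CPM (599 to 733). In fWT mouse 4 the hepatocyte markers were 101196 CPM (others 106889 to 146838) and Pck1, also gluconeogenic, was 2663 CPM (2863 to 5434), both below the other fWT mice. Its stellate markers were above them at 376 CPM (284 to 336), the opposite of mKO mouse 4, as were endothelial markers at 190 CPM (141 to 180) and the adipocyte list at 2078 CPM (1126 to 1513). The part of these values in the high lipogenic levels was not tested.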

How the results depend on the processing

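Over 35 alternatives, 2069 of 2080 values of a member in a comparison kept their side of an adjusted p of 0.05, and no call changed sign. No alternative called a member in a knockout comparison at that limit. Fitting each sex on its own gave 1 member (Elovl6) with an unadjusted p under 0.01 in males. Leaving out 1 mouse gave 0 to 1 such members over both sexes, the 1 being Srebf1 without mKO mouse 4. In WT mice the 2 sex calls became 0 with each genotype fitted on its own (adjusted p = 0.0515 for Scd1 and 0.0532 for Me1 in edgeR), which also gave 3 members with an unadjusted p under 0.01. Leaving out 1 mouse gave 0 to 3 sex calls in WT mice (1 to 3 members with an unadjusted p under 0.01) and 1 to 2 in KO mice (also 1 to 2).

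The mouse number as a replicate block left 1 call in WT (Scd1) and 1 in KO mice, and 1 member in each at an unadjusted p under 0.01, with Me1 at adjusted p = 0.0887 and 0.0842 in edgeR. The numbers do not pair mice: over 24 same-numbered pairs r ran from -0.363 to 0.219, 5 were over 0.1, and in 2 the own number correlated best. The median r between members was 0.622 with a pseudocount of 5.
The cause of these shifts was not tested. With 6 mice a group, the knockout intervals within each sex held changes of either sign for every member, apart from Elovl6 in males. They were widest for Fasn, Thrsp and Scd1.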

Other observations

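At the other end of the ranking, chosen after the values were seen, the genes that ran most opposite to the members from mouse to mouse were Commd8 (r = -0.786), Fbxw7 (r = -0.737) and Apob (r = -0.716) over 24 mice. Fbxw7 encodes a ubiquitin ligase subunit that is known to direct degradation of nuclear SREBP, and Apob encodes the structural protein of very-low-density lipoprotein. The r of Fbxw7 within groups ran from -0.95 to -0.56 and that of Apob from -0.843 to -0.639. Neither was called in the knockout comparisons, with log2 fold changes of -0.15 and 0.10 in males (adjusted p = 0.632 and 0.794, edgeR quasi-likelihood fit, Benjamini-Hochberg).

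Of the pathway lists, genes with a positive r to the members' mean included Mid1ip1 (0.677), a partner of Thrsp that activates acetyl-CoA carboxylase, Pgd (0.712), Aacs (0.705) and Insig1 (0.523). Others had a negative r, among them Usf2 of the upstream genes (-0.501), Mpc2 of the substrate genes (-0.386) and Insig2, the other Insig gene (-0.151). Slc2a4, of the adipocyte list, had r = 0.63 at levels of 1.15 CPM or less, and Car3 r = 0.37. Of the fasting-response genes, Pck1 had r = -0.319. These values are descriptions over 24 mice.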
